A study of Homo sapiens with 4 samples.

Results

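The genes described here are 9 genes that type I interferon is known to induce, ISG15, IFIT1, IFIT3, IFI6, IFI27, IFITM1, MX1, OAS1 and IRF9, of 11963 genes with a probe set of their own on the arrays. They were taken by name, with no threshold on their values, to check whether expression of a short hairpin RNA (shRNA) from a lentiviral vector went along with an interferon response. All probe sets annotated to them were taken, which gave 12 of 22277. Of these, 10 name 1 gene, and the others are shared between IFITM2 and IFITM1 and between RNF31 and IRF9. LAPC4 cells, an established androgen-sensitive human prostate cancer line, were measured on 4 Affymetrix arrays, 1 for each combination of vector and serum after 72 hours. Control cells carried a GFP vector according to the labels, and the other cells an shRNA against both β-TrCP genes, BTRC and FBXW11, which encode substrate receptors of a ubiquitin ligase. The medium held either 10% fetal calf serum with 100 pM of the synthetic androgen methyltrienolone (FCS) or 10% charcoal-stripped serum, which is depleted of androgens (CSS). The study's text describes a doxycycline-inducible H1 promoter for the shRNA and an EF1α promoter for a tet repressor with eGFP on the same lentivirus, and gives the control in one place as cells without doxycycline and in another as the vector alone. The shRNA, doxycycline and differences in vector therefore cannot be told apart, and a response shared by all lentivirally infected cells would not appear as a difference between these arrays.

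Type I interferons bind the receptor chains IFNAR1 and IFNAR2, whose kinases JAK1 and TYK2 pass the signal on to the nucleus. There the complex ISGF3, of which IRF9 is a part, binds the interferon-stimulated response element (ISRE) in promoters and switches on antiviral genes. Double-stranded RNA, including that made from some shRNA vectors, is known to start this pathway through sensors such as RIG-I, MDA5, TLR3 and PKR, while cells that lack the trigger usually hold most of these transcripts at low levels.

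The promoters of 7 of the 9 genes held the ISRE core GAAANNGAAA, or its reverse TTTCNNTTTC, within 250 bases upstream of a RefSeq start site, against 3.71% of 27305 genes. OAS1 and IRF9 held no such letters in that window. The shorter core TTCNNNGAA, known as a GAS element, was found for 5 of the 9, IFI27, IFITM1, MX1, OAS1 and IRF9, against 8.09% of all genes. A match of letters is a description and not a measured binding site. Stretches around the matches are given for ISG15, for a typical pair of neighbouring IFIT genes and for OAS1, on the plus strand of GRCh38.p14 with the matched cores in capitals. In the first 3 sequences the capitals mark the ISRE core on either strand, with overlapping copies merged, and in OAS1 they mark the GAS core.
ISG15, chr1:1013364-1013419: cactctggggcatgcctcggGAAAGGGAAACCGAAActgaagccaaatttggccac
IFIT1, chr10:89392487-89392549: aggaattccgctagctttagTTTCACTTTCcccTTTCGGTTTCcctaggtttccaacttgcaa
IFIT3, chr10:89327821-89327904: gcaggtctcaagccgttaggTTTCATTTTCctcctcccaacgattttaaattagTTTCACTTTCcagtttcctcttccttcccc
OAS1, chr12:112906774-112906822: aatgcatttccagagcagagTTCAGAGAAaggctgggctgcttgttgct

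Each condition has 1 array, so that no difference between conditions has a replicate check. The array of shRNA cells in CSS stood apart, with Pearson correlations across probe sets of 0.946 to 0.948 with the others, which correlated at 0.985 to 0.992 among themselves. It also had an interquartile range of 2.07 on the log2 scale against 2.69 to 2.74, and 35.0% of its probe sets lay under a signal of 20, the study's minimum intensity, against 41.7% to 42.0%. FBXW11 checked the labels: its deposited log2 signal was 8.15 and 8.30 on the control arrays in FCS and CSS and 5.01 and 4.79 on the shRNA arrays. BTRC was dim on all 4 arrays, at 4.46 and 4.60 in control cells and 4.09 and 4.15 with the shRNA. Androgen targets were divided on the labelled loss of androgen. In control cells KLK3 and KLK2 were 0.73 and 0.70 higher in CSS than in FCS on the normalized log2 scale. TMPRSS2 went the other way, with changes of -0.48 and -0.25 in its probe sets. Both KLK3 probe sets rose with CSS in limma (adjusted p = 0.00804 and 0.0248), while no KLK2 or TMPRSS2 probe set passed. Because these targets disagreed, CSS names the array's label here, and not a measured loss of androgen.

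In control LAPC4 cells, most of these genes had little signal. Of the 9 genes, 6 lay under a signal of 20 (4.32 on the log2 scale) on both control arrays, and 3, IFIT1, IFITM1 and MX1, lay under it on all 4 arrays. ISG15, IFIT3 and IRF9 were above it on all 4 arrays. Signals are compared between arrays only within a probe set, and the percentile of a probe set among all probe sets of the same array is given beside them. A signal under 20 leaves only a bound, and presence calls were not used here.

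IRF9, the DNA-binding subunit of ISGF3, had a deposited log2 signal of 5.15 in control cells in FCS, 5.18 in control cells in CSS, 5.21 in shRNA cells in FCS and 4.67 in shRNA cells in CSS. The first 3 arrays thus differed little, and the shRNA array in CSS was the low one. Its percentile was 56.2, 56.6 and 57.3 on the first 3 arrays and 45.4 on that array. The probe set shared with RNF31 had 4.86, 4.80, 5.03 and 4.60 in the same sequence of arrays, and the shRNA array in CSS was again the lowest.

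ISG15, a ubiquitin-like protein that is secreted and is also conjugated to other proteins, lay well above a signal of 20 on each array. Its deposited log2 signal was 6.71 in control cells in FCS, 6.77 in control cells in CSS, 7.35 in shRNA cells in FCS and 6.66 in shRNA cells in CSS, which are signals of 105, 109, 163 and 101. By signal, only the shRNA array in FCS was high. By percentile, 76.7 and 76.9 in control cells and 83.2 and 81.9 with the shRNA, both shRNA arrays were high. The shRNA array in CSS, where signal and percentile differ in this way, was the one with the narrower distribution.

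OAS1, a synthetase of 2′-5′ oligoadenylates that activate RNase L when it binds double-stranded RNA, had 2 probe sets. The brighter had deposited log2 signals of 4.09 and 4.01 in control cells in FCS and CSS, and of 4.83 and 4.92 in shRNA cells in FCS and CSS. Both control arrays were under 20 and both shRNA arrays above it, and its percentile was 34.4 and 31.8 against 51.6 and 52.4. The dimmer probe set had 3.99 and 4.07 in control cells and 4.33 and 4.14 with the shRNA, so that both shRNA arrays were again the higher ones, but only that in FCS passed a signal of 20. By percentile, 30.2 and 34.1 against 42.1 and 28.7, its shRNA array in CSS was the lowest of the 4.

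The IFIT proteins bind RNA that lacks the marks of the cell's own transcripts. IFIT1 had deposited log2 signals of 3.58 and 3.72 in control cells and 3.72 and 3.78 with the shRNA, in FCS and CSS in turn, all under the floor. IFIT3, which binds IFIT1, had 4.49 and 4.43 in control cells and 4.35 and 4.82 with the shRNA. It lay near a signal of 20 on all 4 arrays, lowest on the shRNA array in FCS and highest on that in CSS.

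IFI6 and IFI27, small proteins of the mitochondrion and other membranes, had signals of at least 20 on the shRNA array in CSS alone. IFI6 had deposited log2 signals of 3.98 and 3.88 in control cells and 4.11 and 4.80 with the shRNA. For IFI27 the values were 4.20, 3.97, 4.21 and 4.40 in the same order, and its percentile on the last array, 37.5, lay within the range of 30.3 to 39.2 of the others. Among 8634 probe sets under 20 on the other 3 arrays, 23.9% reached 20 on the shRNA array in CSS and 8.27% reached the level of IFI6. The same share was 0.994%, 1.68% and 1.90% for the control array in FCS, the control array in CSS and the shRNA array in FCS, so that the passage of IFI6 and IFI27 over 20 was shared with many probe sets of that array.

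MX1, a dynamin-like GTPase that blocks viral replication, had deposited log2 signals of 3.75 and 3.79 in control cells and 3.70 and 3.82 with the shRNA. IFITM1, a membrane protein that hinders viral entry, had 3.90 and 3.86 in control cells and 3.86 and 3.83 with the shRNA. The values of both genes lay under 20 on every array. Those of MX1 overlapped between control and shRNA cells, while those of IFITM1 met at 3.86. The probe set that IFITM1 shares with IFITM2 had 4.02, 4.16, 4.01 and 4.39, with the shRNA array in CSS the only one above 20.

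**Figure D1:**
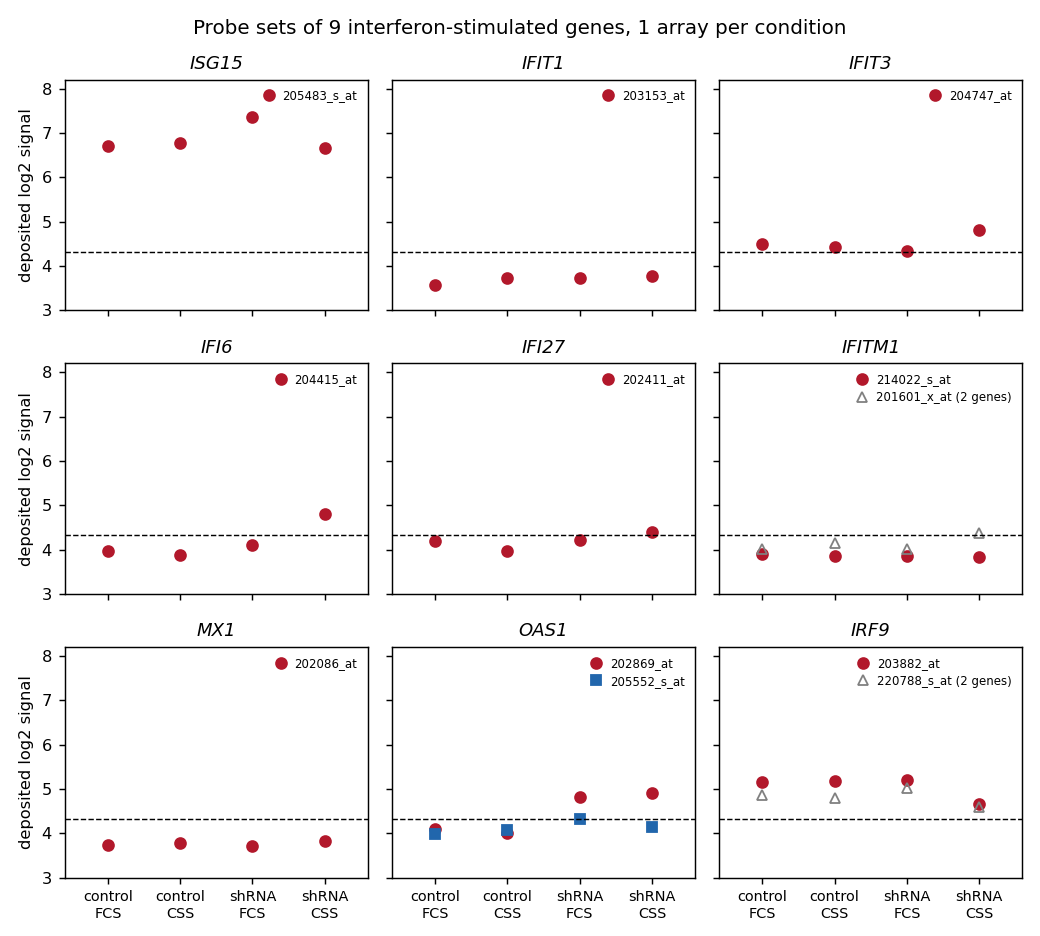
Deposited log2 signal of each of the 9 genes (1 panel a gene) on the 4 arrays, with filled markers for probe sets that name 1 gene, open triangles for those shared by 2 genes, and a dashed line at a signal of 20. ISG15 lies far above the line on every array (6.66 to 7.35), the probe sets that name IFIT1, IFITM1 and MX1 alone lie under it on every array, and the brighter OAS1 probe set (circles) passes it on both shRNA arrays only.

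For the comparison of shRNA with control cells, the probe sets that reached 20 on any array were quantile normalized and values under 20 were raised to 20, the floor. Each gene is given by its brightest probe set, and bounds are on the normalized scale. Beside each log2 change stands the local spread, a robust standard deviation taken over the ratios of 1000 probe sets of similar signal. It describes the scatter between the arrays compared and is no replicate error.

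With the shRNA in FCS, ISG15 and OAS1 were higher, IRF9 and IFIT3 differed by less than the local spread, and the other genes were at the floor or had been left out as dim. None of the 4 genes with a value above the floor on at least 1 of the 2 arrays changed 2-fold, against 1.2% of 7980 genes. ISG15 was the gene counted as past 1.5-fold, against 6.55% of genes, while OAS1 had only a bound that did not reach it and lay past it without the floor. ISG15 had normalized log2 values of 6.61 and 7.21, a change of 0.60 or 1.52-fold, with a local spread of 0.30. For OAS1 the bound was a change of at least 0.53, or at least 1.44-fold, and without the floor the change was 0.70 with a local spread of 0.15. The dimmer OAS1 probe set changed by 0.34 without the floor, in the same direction. By size and with bounds at their value, ISG15 ranked 238 and OAS1 338 among the increases of the 7980 genes, so that 2.98% and 4.24% of genes were as high. The brighter OAS1 probe set was kept only through the shRNA arrays. Its change with the floor could only be upward, so that its rank is no support for a difference. IRF9 changed by 0.07 with a local spread of 0.21, and IFIT3 by -0.12 with a local spread of 0.18. The median over the 3 genes above the floor on both arrays was 0.07, against -0.00 over all genes.

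With the shRNA in CSS, the pair was higher again, IFIT3 and IFI6 were higher and IRF9 was lower. With the floor all changes were smaller than the local spread, 0.48 for IFI6. Without the floor IFI6 alone exceeded it, with a change of 0.74 and a local spread of 0.59. IFI6 was kept only through the shRNA array in CSS. Its change with the floor could only be upward, so that the rise is no support for a difference. None of 5 genes changed 2-fold, against 14.5% of 8731 genes. IRF9 was the gene counted as past 1.5-fold, and it was lower, against 33.1% of genes in either direction. This count depended on the processing: IRF9 was -0.51 from the values as deposited and -0.21 with arrays shifted to a common median, both under 1.5-fold. With the common median IFIT3 was 0.69 higher and IFI6 and OAS1 at least 0.69 and 0.81 higher, and without the floor IFI6 and OAS1 also passed 1.5-fold. ISG15 had normalized log2 values of 6.62 and 7.07, a change of 0.44 or 1.36-fold with a local spread of 0.55. From the values as deposited its change in CSS was -0.11, so that its direction there depended on the normalization. OAS1 was at least 0.57 higher on the log2 scale, and 0.79 higher without the floor with a local spread of 0.81, while its dimmer probe set changed by -0.19 without the floor and by 0.07 as deposited. Among increases of 8731 genes ISG15 ranked 1900 and OAS1 1492, with 21.8% and 17.1% of genes as high. The limit given for the rank of OAS1 in FCS holds here too. IFIT3 changed by 0.24 with a local spread of 0.74, and IFI6 was at least 1.30-fold higher, a bound of 0.38. IRF9 went from 5.15 to 4.52, a change of -0.63 with a local spread of 1.21. The median over 3 genes was 0.24, against -0.01 over all genes.

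OAS1 was thus under 20 on both control arrays and above it on both shRNA arrays, a pattern shared by 125 of 8886 probe sets under 20 in both controls (1.41%). This pattern was picked out after the values of OAS1 were seen, and the share is a description only.

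**Figure D2:**
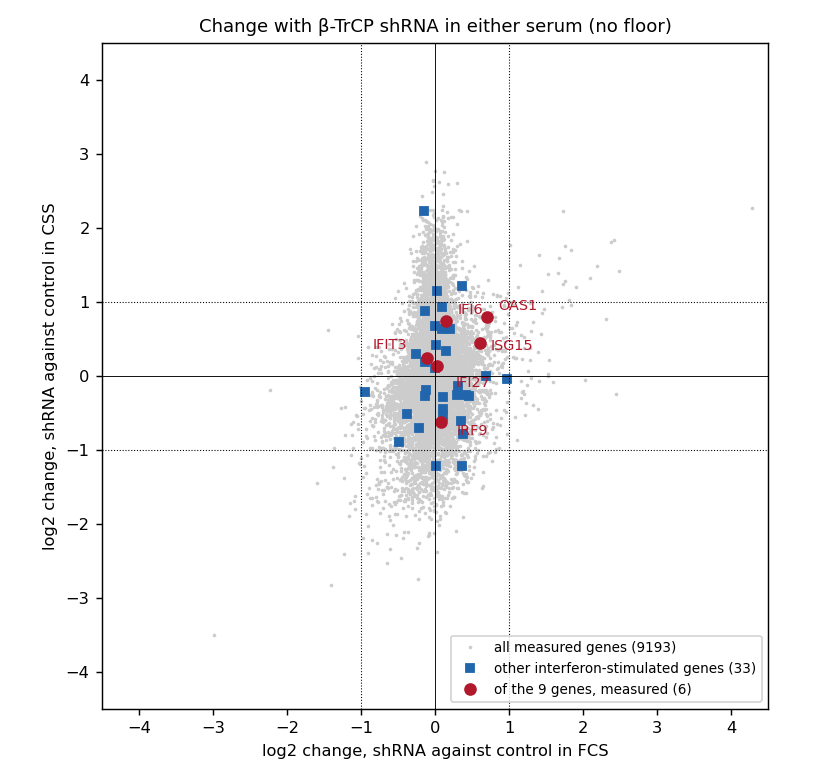
Log2 change with the shRNA in FCS (horizontal axis) against that in CSS (vertical axis) for all genes (grey), other interferon-stimulated genes (blue squares) and the 6 of the 9 genes that were kept (red circles), from normalized values without the floor, so that dim genes are shown at their measured values, with lines at 0 and at 2-fold. The comparisons share no array. ISG15 (0.60 and 0.44) and OAS1 (0.70 and 0.79) lie in the upper right, IRF9 (0.07 and -0.63) lies below the centre, and vertical changes of all genes spread more widely than horizontal ones.

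The effect of the shRNA over both sera was tested with limma on all 4 arrays, with serum and shRNA as additive terms and 1 residual degree of freedom, so that any interaction counts as error. Of 13500 probe sets fitted, 3.74% passed an adjusted p of 0.05 for the shRNA. Of the genes described here, 4 had a probe set in the fit and 0 passed, with 1, OAS1, at an unadjusted p under 0.05. OAS1 was 0.55 higher on the log2 scale (SE 0.24, 95% interval 0.07 to 1.02, adjusted p = 0.264 in limma), computed with its control values at the floor. OAS1 entered the fit only through the shRNA arrays, where it was above the floor, so that its p is no support for a difference. ISG15 was 0.52 higher (SE 0.32, 95% interval -0.10 to 1.15, adjusted p = 0.531 in limma). Both intervals reach past a 2-fold change upward, so that the fit leaves room for a larger difference than the one measured. IFIT3 had an effect of 0.06 (SE 0.23, 95% interval -0.38 to 0.50) and IRF9 of -0.28 (SE 0.37, 95% interval -1.01 to 0.45), with adjusted p = 0.968 and 0.858 in limma. The model's variances came from a trend on signal alone, and without that trend no probe set passed, with 626 at an unadjusted p under 0.05. The labels do not say whether the arrays came from separate cultures, so that the p-values measure only the spread between these samples, which may be technical.

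Between CSS and FCS, the genes above the floor differed little in control cells. ISG15, IFIT3 and IRF9 changed by 0.02, -0.03 and 0.02, with local spreads of 0.28, 0.18 and 0.21, and the other 6 were at the floor on both arrays or had been left out as dim. None of the 3 changed 1.5-fold or 2-fold, against 4.69% and 0.301% of 7978 genes. In shRNA cells, CSS went along with larger differences in either direction. IRF9 changed by -0.68, which was 1.60-fold lower with a local spread of 1.25, ISG15 by -0.14, OAS1 by 0.04 and IFIT3 by 0.32. None of 5 genes changed 2-fold, against 14.5% of 8733 genes, and IRF9 was the gene counted as past 1.5-fold, against 33.5%. With a common median its change was -0.27. In limma 0 of the 4 genes passed for CSS, with 0 at an unadjusted p under 0.05, against 2.65% of probe sets that passed.

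The interferon genes gave little signal, and genes of receptors and signalling differed little with the shRNA in FCS. Of 15 interferon genes listed, 14 had a probe set and 13 of these lay under 20 on all 4 arrays. IFNB1, the interferon that epithelial cells and fibroblasts make first after RNA is sensed, had deposited log2 signals of 3.79 and 3.91 in control cells and 3.98 and 4.84 with the shRNA in FCS and CSS. It was above 20 on the shRNA array in CSS alone, where 7.41% of probe sets under 20 on the other arrays reached its level. The receptor chain IFNAR1 had 4.04 and 4.33 in control cells and 4.09 on both shRNA arrays. IFNAR2, the other chain, changed by 0.00 with the shRNA in FCS and 0.26 in CSS in the brighter of its probe sets, and by -0.14 and -0.33 in the other, and the kinase TYK2 by -0.22 and 0.23. Of 13 genes of receptors and signalling, 12 had a fold in FCS, with 3 higher and 9 lower and a median of -0.14. Past 1.5-fold were 0, against 6.55% of all genes, which a list this short can also hold at that share. In CSS 7 were higher and 3 lower, and 3 more had only a bound. Past 1.5-fold, bounds included, 2 were higher and 0 lower, against 33.1% of all genes in either direction. PIAS1 probe sets ran from -1.94 to 0.36 there. The feedback inhibitor SOCS3 had deposited log2 signals in CSS of 4.25 without and 5.36 with the shRNA.

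The RNA sensors were as mixed. The kinase PKR (EIF2AK2) had deposited log2 signals of 5.33 and 5.30 in control cells and of 5.71 and 4.27 with the shRNA, so that this brighter probe set changed by 0.36 in FCS and was at least 0.95 lower in CSS. Its other probe set changed by -0.04 and -0.18. RIG-I (RIGI) had 4.04 and 4.10 in control cells and 4.76 and 4.38 with the shRNA. After normalization it was above the floor on the shRNA array in FCS only. TLR3 and MDA5 (IFIH1) lay under 20 on all 4 arrays. Over 13 genes of RNA sensing kept, the median in FCS was 0.06, with 6 higher and 5 lower. Past 1.5-fold were 0, against 6.55% of all genes, which a list this short can also hold at that share. In CSS the median was 0.09, with 5 genes higher, 4 lower and 3 more that had only a bound. Past 1.5-fold, bounds included, 1 gene was higher and 5 were lower, against 33.1% of all genes in either direction. The kinase TBK1 changed by -1.23.

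Among enzymes that attach or remove ISG15, the ligase HERC5 changed by -0.38 with the shRNA in FCS and -0.52 in CSS. The ligase TRIM25 changed by 0.09 and 0.93. USP18, the protease that removes ISG15, had 5.75 and 5.41 in control cells and 5.75 and 4.36 with the shRNA, so that it changed by 0.01 in FCS and was at least 2.05-fold lower in CSS. Of the relatives of OAS1, OAS2 lay under 20 on all 4 arrays and OAS3 had deposited log2 signals of 4.21, 3.96, 4.19 and 4.81. OASL, which lacks the synthetase activity, had 4.96, 4.67, 4.80 and 5.39, a change of -0.14 in FCS and 0.87 in CSS. By the brightest probe set, in none of these 3 relatives did the shRNA array in FCS exceed both control arrays. It did so in OAS1, and also in genes outside this family such as RIGI and IFITM2.

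A wider list of 69 other interferon-stimulated genes, which shares some genes with the lists above, held 59 with a probe set of their own. Of these 26 lay under 20 on all 4 arrays, among them IFIT2, IFI44L, MX2, RSAD2, CXCL10 and XAF1, which strong interferon responses are known to raise. In FCS, 13 of 21 genes with a fold were higher and 8 lower with the shRNA, with a median of 0.10. Past 2-fold were 0, against 1.2% of 7980 genes. ISG20, an exonuclease of RNA, was the only one past 1.5-fold, with a change of -0.95, against 6.55% of all genes. IFI44 and RIGI were at least 0.49 and 0.47 higher. Like OAS1, they passed the filter only through shRNA arrays. With the floor their changes here could only be upward, so that they are no support for a difference. In CSS, 6 of 14 genes with a fold were higher, 8 were lower, and the median was -0.17, with 17 more genes that had only a bound. Of these genes with a fold or a bound, 8 were past 1.5-fold higher and 3 lower. Over all 8731 genes 33.1% passed it, 1458 higher and 1434 lower. Some of the 8, PSMB8 among them, passed the filter only through the shRNA array in CSS. With the floor they could only be higher, so that the counts are no support for a direction. Past 2-fold, bounds included, were PSMB8 and IFITM2, which were higher, and USP18, which was lower, against the 14.5% of all genes given above. PSMB8, an immunoproteasome subunit, had deposited log2 signals of 3.93, 3.84, 3.80 and 5.82. Among 8634 probe sets under 20 on the other arrays, 0.336% reached its level on the shRNA array in CSS. PSMB8 was named for the size of its change, so that this share is a description only. IFITM2, the relative of IFITM1, had 4.71, 4.76, 5.09 and 5.72, a change of 1.22 after normalization in CSS with a local spread of 1.08, and under 2-fold as deposited.

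In limma, 0 of 33 probe sets of the wider list passed for the shRNA and 0 for CSS, with 1 and 1 at an unadjusted p under 0.05. Over all 13500 probe sets 3.74% and 2.65% passed, and 1706 and 1728 had an unadjusted p under 0.05. The lists of receptors and signalling, of RNA sensors and of ISG15 conjugation had 0 of 20, 0 of 14 and 0 of 4 probe sets past the threshold for either factor. At an unadjusted p under 0.05 they had 3, 0 and 0 for the shRNA and 1, 0 and 0 for CSS. In antigen presentation B2M, the light chain of class I molecules, was the only gene that passed. One of its probe sets rose with the shRNA by 0.47 (adjusted p = 0.00173 in limma) and the other had 0.39 (adjusted p = 0.055 in limma). For CSS both fell, by 0.52 and 0.48 (adjusted p = 0.000351 and 0.00943 in limma). By fold, the list had medians of 0.01 in FCS over 10 genes and 0.67 in CSS over 9, of which 8 were higher and TAPBP, a chaperone of class I loading, changed by -1.37. HLA-C probe sets ran from -0.60 to 0.99 in CSS, so that they disagreed in direction.

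**Figure D3:**
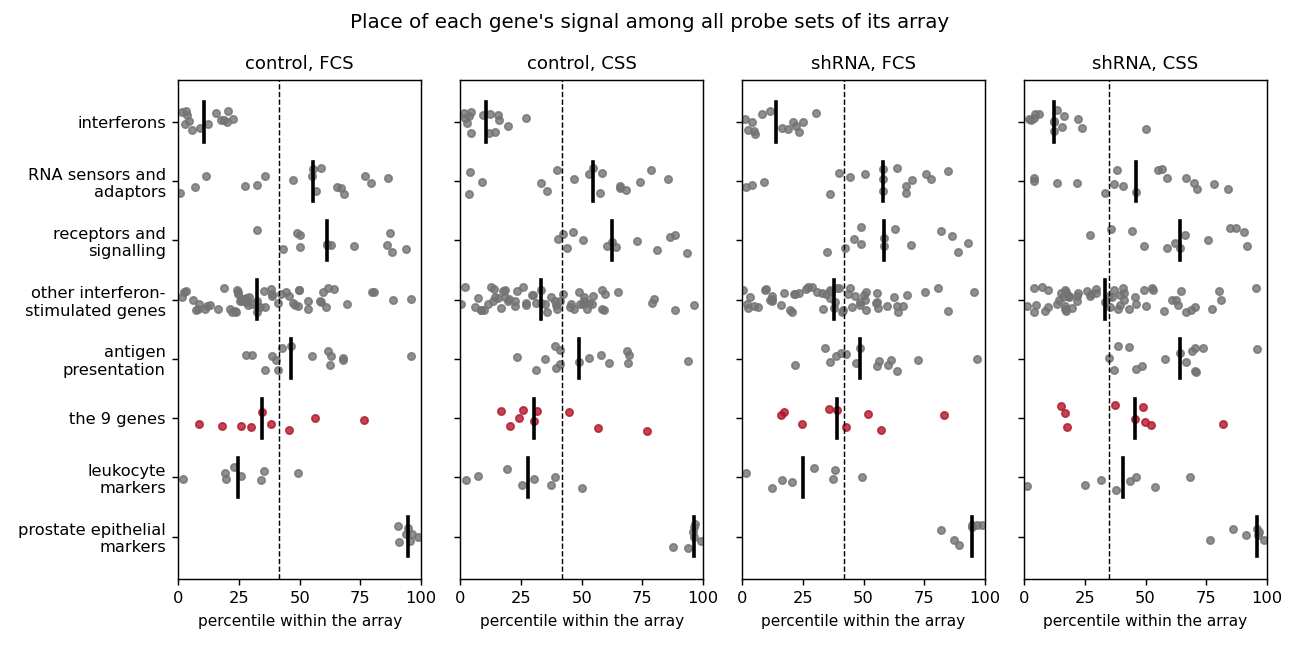
Percentile of each gene's brightest probe set among all probe sets of the array (horizontal axis) for the 9 genes and the pathway and marker lists (rows), in 1 panel an array, with a point for each gene, a black bar at the median and a dashed line at a signal of 20. The medians of the 9 genes are 34.4, 30.3, 39.2 and 45.4 on the control arrays in FCS and CSS and the shRNA arrays in FCS and CSS, and those of the interferons are 10.5 to 14.0.

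Markers checked the labelled cell type. The 7 prostate epithelial genes with a probe set had median percentiles of 94.6 to 96.2 across arrays. Of 10 leukocyte markers, 8 had a probe set and 3, PTPRC, LYZ and NKG7, lay under 20 on all 4 arrays. CD79A lay above it on all 4, with deposited log2 signals of 4.68 and 4.73 in control cells and 4.67 and 5.69 with the shRNA. The brightest probe sets of CD3D, CD3E, CD14 and TCL1A passed it on the shRNA array in CSS only. Of 8634 probe sets under 20 on the other 3 arrays, 23.9% reached 20 on that array. Such a crossing was therefore shared with many probe sets and is not particular to leukocyte genes. The summed leukocyte signal was 127, 130 and 127 on the control arrays in FCS and CSS and the shRNA array in FCS, and 200 on the shRNA array in CSS. The summed fibroblast signal was 105, 104, 104 and 151 in the same order. Both sums include probe sets that passed 20 on the shRNA array in CSS only. Their rises there were not compared with those of other dim probe sets. The summed signal of the 9 genes was 254, 255, 326 and 276, highest on the shRNA array in FCS. Most of the difference in FCS came from ISG15 alone, with signals of 105 in control cells and 163 with the shRNA. The part of other cell types in the values of any of these arrays was not tested.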

How the data were processed

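The authors deposited log2 values for 22277 probe sets on each of 4 arrays. Their methods start from MAS5 signals, filter on a present call and an intensity of 20, and apply quantile normalization after the log2 step. No present calls were used here, and whether the deposited values are unchanged MAS5 signals is not known. The 15678 probe sets that reached 20 on any array were quantile normalized and set to a floor of 20 (log2 4.32), and the brightest probe set naming 1 gene stood for each of 9193 genes. Main effects were tested with limma 3.58.1 in R 4.3.3, with a trend and Benjamini-Hochberg adjustment over the 13500 probe sets above the floor on at least 2 arrays. Python 3.11.15 with pandas 2.3.3 and numpy 2.4.6 served for the rest. The steps were tested on simulated data. The number of arrays, 1 for each condition, limits the precision.

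The 9 genes and the lists were chosen with earlier results of these data known. All 9 are named; from each other list, up to 6 genes with the largest change in each serum and genes central to the pathway could be named. Genes whose pattern over arrays resembled that of one of the 9 were to be named only if it had a range of at least 2-fold, which none had. Alternatives were the deposited values, a common median, no floor, a higher filter, a mean over probe sets, another threshold and other forms of limma. Normalization without the shRNA array in CSS and the percentile within an array were added after seeing the data. Promoter sequences are from RefSeq (GRCh38.p14), where all 9 genes matched.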

Additional observations from a re-analysis of the deposited data

How the results depend on the processing

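Each condition has 1 array, and no array can be left out of a comparison. No paired analysis was possible because each condition has 1 array, so that there are no replicate numbers to pair; the limma fit already takes the shRNA effect within each serum. Of the values for single genes, 78 moved by less than the local spread under the alternatives and 4 by more: ISG15 with the shRNA in CSS was -0.11 from the values as deposited, ISG15 with CSS in shRNA cells was -0.69 from the same values, and OAS1 with the shRNA in FCS was 0.70 without the floor and 0.29 as a mean over probe sets. At a 1.5-fold threshold in place of 2-fold, 1 gene was counted with the shRNA in FCS, 1 with the shRNA in CSS and 1 with CSS in shRNA cells. The median change with the shRNA in FCS was 0.36 over 2 genes when arrays were only shifted to a common median, and 0.65 with a signal of at least 100 on 1 array, where ISG15 was the only gene. With that filter the median of the wider list was -0.31, over 4 genes. The number of probe sets passing limma for the shRNA was 505, and it was 57 with a common median, 103 from the deposited values, and 0 without the trend or with all kept probe sets. No fitted probe set of the 9 genes passed under any of these, with 4 in the fit, or 7 with all kept probe sets. Adjusted p for OAS1 was 0.264 as reported, 0.331 without the floor, 0.596 with a common median and 0.423 from the deposited values. The causes were not tested. IRF9 with the shRNA in CSS, within its local spread, ranged from -0.63 to -0.21. Signal limits the measurement: 3 of the 9 genes lay under 20 on all 4 arrays and gave no change, and OAS1 and IFI6 gave bounds with the shRNA.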
